A study of Mus musculus with 72 samples.

Results

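Adipose stromal progenitor genes are described here by 9 members, namely Pdgfra, Pdgfrb, Dpp4, Pi16, Cd34, Ly6a, Thy1, Fap and Mgp, out of the 55416 genes counted. A member is the row of the count table whose Ensembl identifier carries that symbol, and each symbol matched 1 row. All 9 passed the filter on low counts in epididymal white adipose tissue (eWAT), the fat pad beside the epididymis. RNA sequencing was done on eWAT, liver and pituitary of the same 24 male FVB mice (strain FVB.129P2 in the labels), so there were 72 libraries and 6 mice in each of 4 groups. The mothers of FED mice ate without limit, whereas those of CR20 mice received 20% less food than their paired FED mothers from embryonic day 15 until weaning at day 21. From 8 weeks of age the sons were kept on chow of either 10% (CTRL) or 45% fat (HFD), for 10 weeks in the study's account of the sequenced mice, while the labels and methods leave 10 or 16 weeks open. The groups are therefore FED-CTRL, FED-HFD, CR20-CTRL and CR20-HFD. No mouse carries a transgene in the labels, and how many litters the mice came from is not given in the sources used here. The replicates are mice with separate animal numbers.

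White fat holds, beside its lipid-filled adipocytes, a stroma of fibroblast-like cells from which new adipocytes arise. Pdgfra and Pdgfrb encode the receptor tyrosine kinases that bind platelet-derived growth factors, and the former marks most of these progenitors while the latter also marks mural cells of the vessel wall. Dpp4, a dipeptidyl peptidase of the cell surface, and Pi16, a peptidase inhibitor, mark progenitors of the interstitial layer. Cd34, a sialomucin, Ly6a, which encodes the antigen SCA-1, and Thy1, which encodes CD90, are surface proteins used to sort such cells, Fap encodes a fibroblast protease, and Mgp encodes a secreted inhibitor of calcification. None of the 9 is confined to progenitors. In bulk tissue, fewer cells of a type and less RNA per cell cannot be told apart.

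In the annotation (GRCm39, GENCODE M39) Pdgfra lies at chr5:75311994-75358876, Pi16, Cd34, Ly6a, Thy1 and Mgp lie on chromosomes 17, 1, 15, 9 and 6, and both Dpp4 (chr2:62159798-62242576) and Fap (chr2:62331286-62404419) lie on the minus strand of chromosome 2. Dpp4 and Fap belong to 1 protease family and lie 88.7 kilobases apart, with 1 other protein-coding gene, the glucagon gene Gcg, between them. The bases that precede the annotated starts of Fap, Dpp4 and Pi16 are shown because Pi16 and Fap were both near 0 in liver, while Dpp4, the neighbour of Fap, was higher in liver than in eWAT. Dpp4 was added to the promoters shown after its values were seen. Each is read 5′ to 3′ on the strand of its gene, and capitals mark the letters TATAAA.

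Fap, chr2:62404420-62404669, minus strand: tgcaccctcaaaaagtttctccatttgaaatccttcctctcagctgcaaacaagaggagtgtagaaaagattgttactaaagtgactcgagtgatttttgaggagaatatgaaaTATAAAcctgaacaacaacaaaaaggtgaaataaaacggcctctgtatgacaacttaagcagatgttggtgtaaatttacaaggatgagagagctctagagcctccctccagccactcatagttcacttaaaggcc
Dpp4, chr2:62242577-62242825, minus strand: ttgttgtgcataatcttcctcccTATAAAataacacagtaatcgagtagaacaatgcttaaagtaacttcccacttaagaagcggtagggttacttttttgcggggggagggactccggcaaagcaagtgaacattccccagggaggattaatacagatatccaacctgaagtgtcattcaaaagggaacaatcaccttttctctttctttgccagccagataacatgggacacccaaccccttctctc
Pi16, chr17:29536404-29536653, plus strand: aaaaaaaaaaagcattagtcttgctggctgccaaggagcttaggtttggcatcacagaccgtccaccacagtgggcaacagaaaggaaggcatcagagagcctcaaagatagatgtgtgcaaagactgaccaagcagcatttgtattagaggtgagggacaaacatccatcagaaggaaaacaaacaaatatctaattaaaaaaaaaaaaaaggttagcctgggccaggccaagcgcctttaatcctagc

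These windows are poor in G and C. Their GC content was 39.6% (Fap), 43.8% (Dpp4) and 43.2% (Pi16), against a median of 53.2% over 21120 windows of 250 bases before protein-coding genes. Genes of chromosome 18, with Pdgfrb among them, are left out of these 21120, which are the windows meant by all windows below. The window of Dpp4 is 249 bases long, because the base next to the start of its canonical transcript lies in an exon of the annotation and is not shown. TATAAA began 136 bases before the canonical start of Fap and 227 bases before that of Dpp4, and 12% of all windows hold it on either strand. The CCAAT box is found on either strand in 36.5% of all windows, the GC box GGGCGG in 36.3%, the AP-1 motif TGANTCA in 6.23% and the homeobox motif GTTAAT in 6.26%, and none of these 4 was in the windows shown. These are letters in a window and not sites of binding.

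Total counts ranged from 11589675 to 22364963 in eWAT, from 9842813 to 19928212 in liver and from 18299494 to 27601208 in pituitary. Levels are given as CPM, counts divided by their library total and scaled alike in all libraries, and 3 counts correspond to 0.109 to 0.305 CPM depending on the library, a floor that covers counting error only. The summed level of 10 adipocyte genes was 6805 to 32713 CPM in eWAT and 42.5 to 317 CPM in the other tissues. Some eWAT libraries stood apart. FED-HFD mouse 23 had the lowest adipocyte sum and the highest macrophage sum, 10900 CPM against 2331 to 4116 CPM in the other FED-HFD mice. The summed hepatocyte genes reached 753 CPM in FED-HFD mouse 10, 622 CPM in CR20-CTRL mouse 5 and 157 CPM in FED-HFD mouse 13, and the summed epididymis and testis genes 132 CPM in CR20-CTRL mouse 4, 62.1 CPM in CR20-CTRL mouse 5 and 26.5 CPM in CR20-HFD mouse 6. The counts are therefore also given without these 6 libraries.

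All 9 members were expressed in eWAT. Per kilobase of exon, the median level over 24 mice was highest for Mgp (61.4 CPM per kilobase) and Ly6a (35.6 CPM per kilobase), followed by Cd34 (11.7), Pi16 (9.14), Pdgfrb (7.90), Dpp4 (7.08), Thy1 (5.58), Pdgfra (4.46) and Fap (2.12). The order was not the same in every mouse. Ly6a was above Cd34, and Pdgfra above Fap, in 24 of 24 mice. Mgp was above Ly6a in 18 mice, Cd34 above Pi16 in 19, Dpp4 above Thy1 in 19, Thy1 above Pdgfra in 16, and Pi16 above Pdgfrb and Pdgfrb above Dpp4 in 14 each, so these neighbours in the order overlapped. Exon lengths from the annotation count all isoforms of a gene together.

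Against liver, 8 of the 9 members were higher in eWAT, a call made for 38.7% of the 19210 genes tested, and Dpp4 was lower (called lower for 27.4%). The largest difference was that of Pi16. Its eWAT level was 13.5 to 119 CPM (median 58.1), while in liver it had 0 to 6 counts per library and was at 0 in 2 of 24 libraries. Over the pooled counts, scaled by library totals alone, the ratio was 333-fold (95% exact counting interval 262 to 430, counting error only). Fap was close to the floor in liver as well, with 0 to 6 counts per library and 0 in 3 of them, and the pooled ratio was 84.3-fold (64.4 to 113). Cd34 stood at 98.7 to 199 CPM in eWAT and 0.645 to 2.59 CPM in liver, a log2 fold change (log2FC) of 6.12 (SE 0.10, adjusted p = 8.01e-56 by edgeR). On the same edgeR scale the log2FC was 7.64 for Pi16 and 5.66 for Fap. Their pooled ratios above are on another scale and cannot be ranked against the log2FC of Cd34. The log2FC of the others that were higher was 4.31 for Mgp, 3.15 for Pdgfra, 2.81 for Thy1, 1.98 for Ly6a and 1.94 for Pdgfrb. In these 8 genes the lowest eWAT mouse lay above the highest liver. The share of all genes that separate in this way was not computed, so this is not shown to be particular to the members.

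Dpp4 went the other way. Its liver level was 81.6 to 153 CPM (median 103) and its eWAT level 27.6 to 141 CPM (median 62.2), with 1 mouse of 24 higher in eWAT. The log2FC was -1.47 (SE 0.11, adjusted p = 1.22e-19 by edgeR) and -0.72 with library totals in place of TMM factors (scaling factors that compare libraries on most of their genes), a scaling that moved the median of all genes from 0.22 to 0.94 and the share of calls that were higher in eWAT from 58.5% to 78.8%. Dpp4 lay below the median of all genes under both.

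Against pituitary, 7 members were higher in eWAT (called higher for 35.6% of genes), Thy1 was lower (called lower for 34.7%) and Pdgfrb was not called. Dpp4 had the largest difference here, with 0.631 to 2.13 CPM in pituitary and a log2FC of 5.39 (SE 0.14, adjusted p = 2.62e-45 by edgeR). Pi16 followed with 5.08, Fap with 4.05, Cd34 with 3.17, Pdgfra with 2.25, Ly6a with 1.09 and Mgp with 0.87. For Mgp and Ly6a the ranges overlapped, and Mgp was higher in the eWAT of 22 of 24 mice. Thy1, also a surface protein of neurons, was at 135 to 201 CPM in pituitary and 14.8 to 44.0 CPM in eWAT (log2FC -2.82, SE 0.12, adjusted p = 1.67e-33 by edgeR). Pdgfrb was at 32.3 to 56.3 CPM in pituitary and 44.7 to 160 CPM in eWAT (log2FC 0.44, SE 0.10, adjusted p = 8.78e-05), which is under the fold minimum of 0.58. With library totals it was 0.59 and called.

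**Figure D1:**
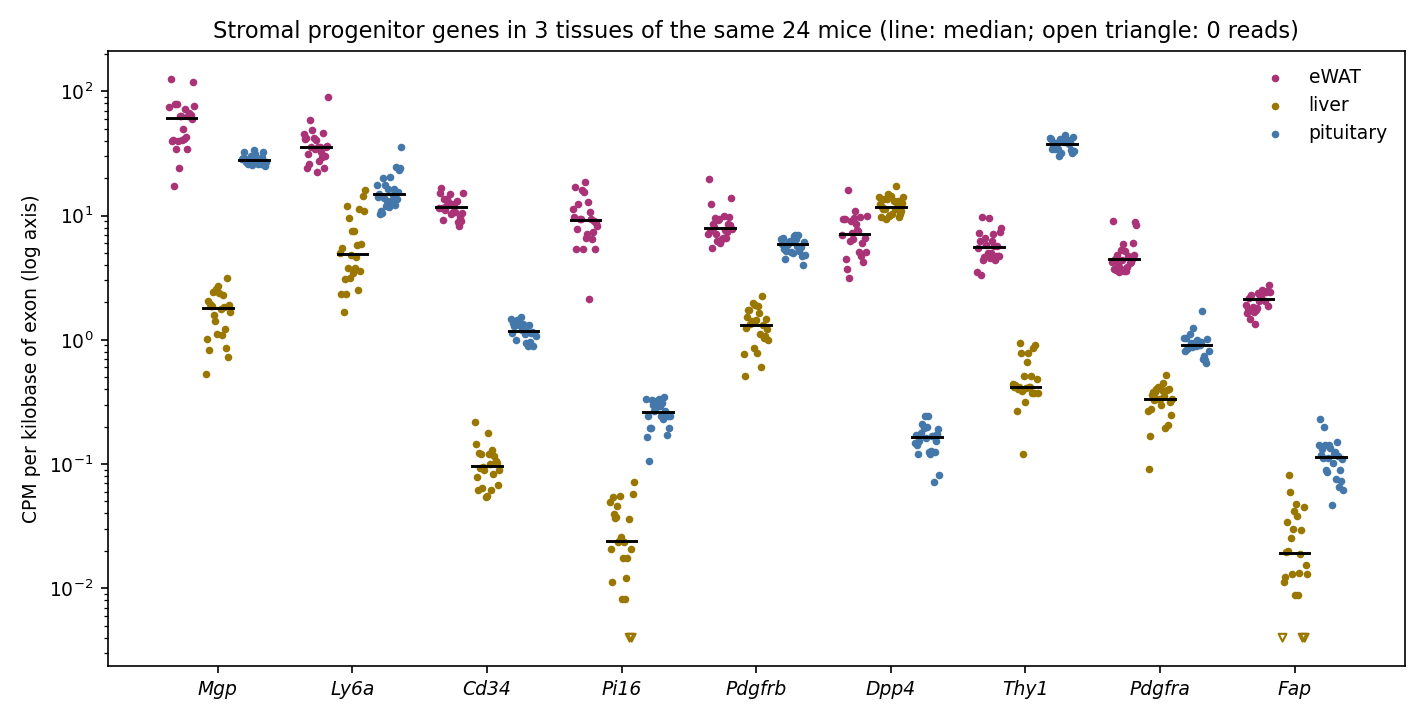
Level of each of the 9 genes in CPM per kilobase of exon (log axis) in eWAT, liver and pituitary of the same 24 mice, 1 point per library, with the median as a line and libraries at 0 reads as open triangles. Dpp4 is lowest in pituitary and highest in liver, Thy1 is highest in pituitary, and Pi16 and Fap are near 0 in liver.

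The next question was whether the high-fat diet or the mother's restriction went with different levels of these genes in eWAT. A gene was called at an adjusted p of at most 0.055 and an absolute log2FC of at least 0.58, the thresholds of the study's methods. With the diet in FED mice (FED-HFD vs FED-CTRL), edgeR's quasi-likelihood test called 0 of the 9 members, where 8.01% of the 15964 tested genes were called, and 1 had an unadjusted p under 0.05 (25.7% of all genes). For the maternal groups on the high-fat diet (CR20-HFD vs FED-HFD), 0 passed beside 9.73% of all genes, and 4 had an unadjusted p under 0.05 (29.8% of all genes). With the diet in CR20 mice (CR20-HFD vs CR20-CTRL) and for CR20-CTRL vs FED-CTRL, 0 members and 0% of all genes were called, and 0 and 1 members had an unadjusted p under 0.05 (6.03% and 7.39% of all genes). For the interaction of maternal group and diet, 0 members were called beside 2.42% of all genes (2.44% on the adjusted p alone), and 1 had an unadjusted p under 0.05 (18.2% of all genes). DESeq2 and limma voom with and without quality weights also called 0 members in each of the 5. The share of all genes they called differed, most of all for the interaction, at 5.14% by DESeq2, 1.11% by voom with weights and 0% without, and DESeq2 called 0.94% for CR20-CTRL vs FED-CTRL. The median log2FC of the 9 was 0.03, 0.02, -0.04, 0.15 and 0.004 in these comparisons, and that of all tested genes lay between -0.02 and 0.02. The 4 comparisons share groups of mice with each other, and a value is given as first minus second, between the FED groups (HFD minus CTRL), the CR20 groups (HFD minus CTRL), the HFD groups (CR20 minus FED) and the CTRL groups (CR20 minus FED).

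**Figure D2:**
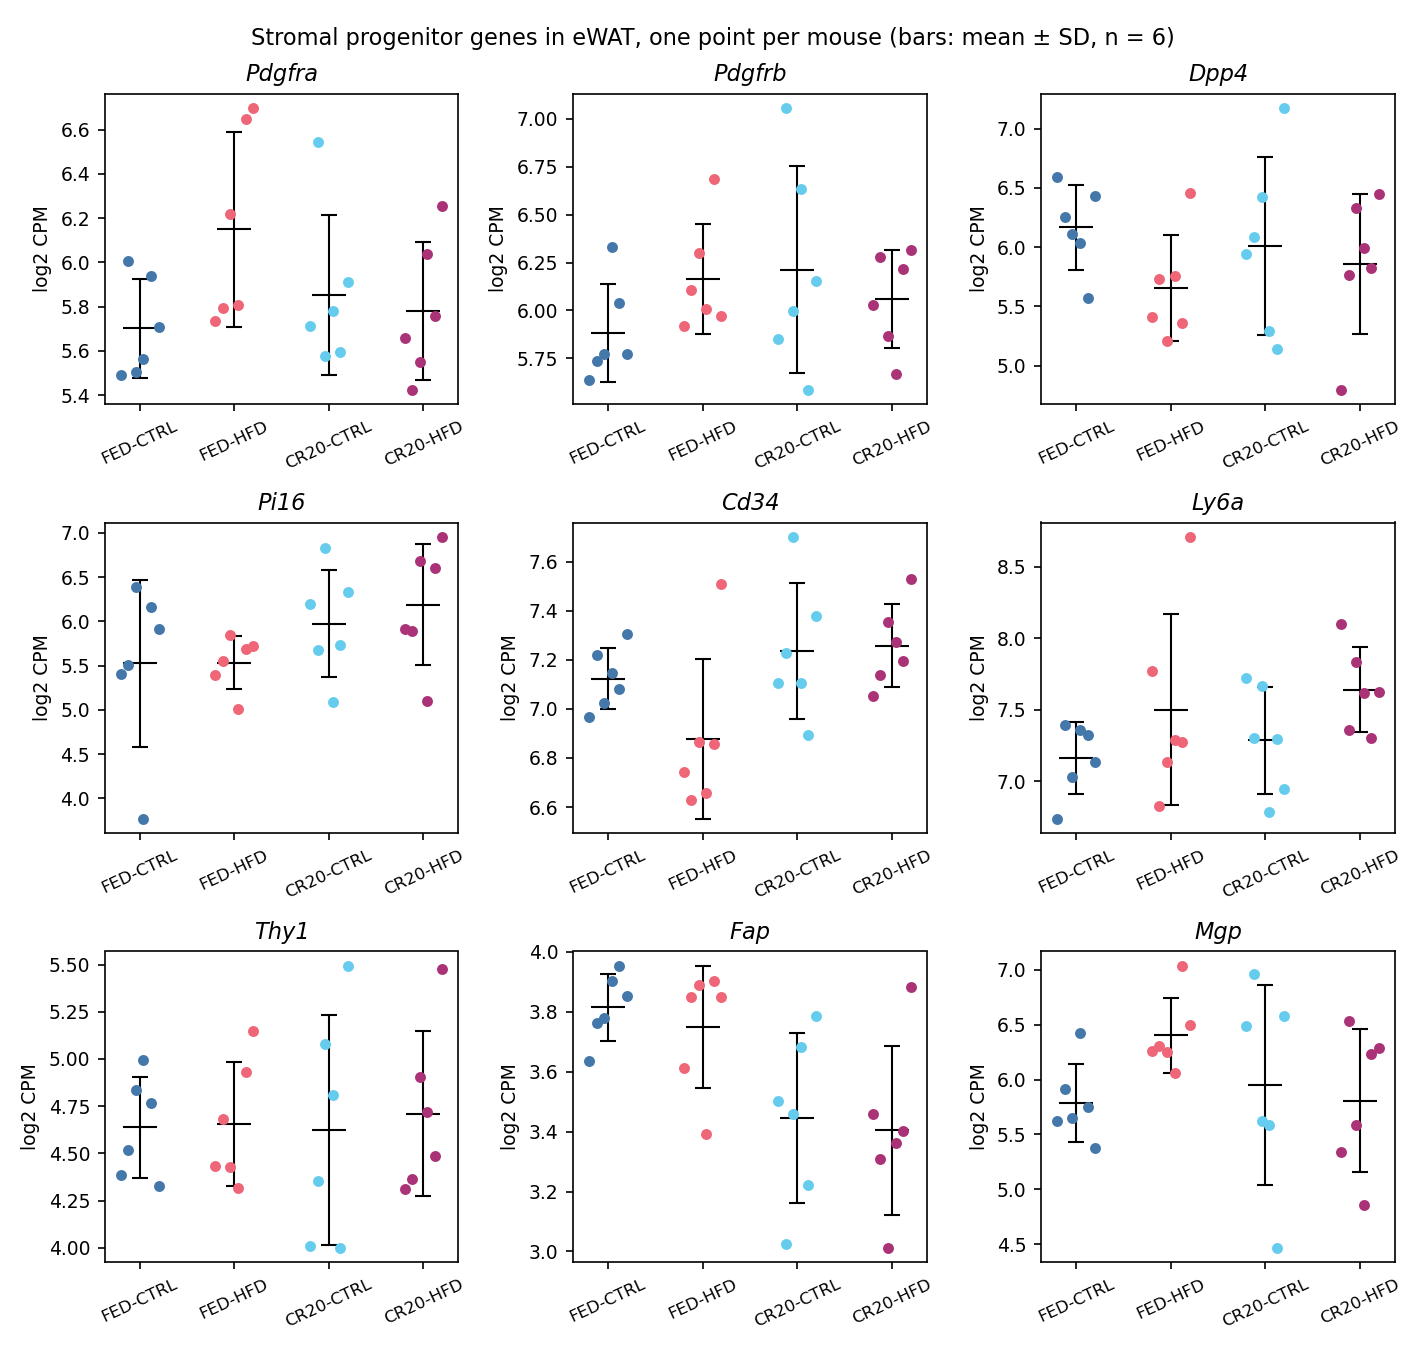
Log2 CPM of each gene in eWAT by group, 1 point per mouse, with bars for the mean ± SD of 6 mice (each panel has its own vertical axis). In every panel the groups overlap, and single mice stand apart in several, such as FED-HFD mouse 40 in Cd34 and Ly6a and FED-CTRL mouse 24 in Pi16.

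Among the receptors, Pdgfra was the member with the smallest edgeR p between the FED groups, while Mgp had the smallest in the exact permutation test. Its level was 44.0 to 63.4 CPM (median 49.4) in FED-CTRL and 52.4 to 109 CPM (median 66.8) in FED-HFD. In CR20-CTRL it was 44.9 to 112 CPM (median 53.6) and in CR20-HFD 43.1 to 73.0 CPM (median 52.4). FED-HFD mice 23 and 40 and CR20-CTRL mouse 5 were above 100 CPM and the other 21 mice below 75, and the groups overlapped. The log2FC between the FED groups was 0.49 (95% interval 0.10 to 0.89, adjusted p = 0.102 by edgeR), and an exact two-sided permutation test on log2 CPM gave p = 0.0476. Between the HFD groups it was -0.40 (adjusted p = 0.165) and for the interaction -0.58 (interval -1.14 to -0.02, adjusted p = 0.261), none of them called. Pdgfrb had medians of 53.4, 68.6, 65.2 and 69.8 CPM in FED-CTRL, FED-HFD, CR20-CTRL and CR20-HFD, and its highest mouse was again CR20-CTRL mouse 5 (160 CPM). Its log2FC between the CTRL groups was 0.41 (interval -0.01 to 0.82, adjusted p = 0.692).

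The ligands did not pass the test either. Of the 7 genes of the PDGF list, the 2 receptors and the receptor-like gene Pdgfrl included, 0 were called in any comparison. The value of Pdgfrl was 0.86 (SE 0.32, adjusted p = 0.0879) between the FED groups and those of the ligand genes Pdgfa, Pdgfb, Pdgfc and Pdgfd 0.18, 0.55, -0.35 and -0.22.

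The interstitial progenitor genes Dpp4 and Pi16 spread widely between mice. Dpp4 was at 44.7 to 94.8 CPM (median 71.2) in FED-CTRL and at 36.8 to 87.8 CPM (median 48.7) in FED-HFD. In CR20-CTRL it ran from 32.8 to 141 CPM (median 71.3) and in CR20-HFD from 27.6 to 83.5 CPM (median 60.2). FED-HFD mouse 40 was at 87.8 CPM and the other 5 mice of that group at most at 57.5 CPM. The log2FC was -0.49 between the FED groups (interval -1.10 to 0.13, adjusted p = 0.32 by edgeR) and 0.23 between the HFD groups (interval -0.38 to 0.85).

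Pi16 had the largest fold between the HFD groups. Its level was 34.3 to 57.1 CPM (median 49.7) in FED-HFD and 33.9 to 119 CPM (median 78.9) in CR20-HFD, so that the groups had almost the same lowest level and the highest mouse was in CR20-HFD. The log2FC was 0.76 (interval 0.06 to 1.46), with an adjusted p of 0.133 by edgeR and p = 0.0649 in the exact permutation test. In FED-CTRL it was at 13.5 to 81.8 CPM (median 52.1), where mouse 24 had the 13.5, and in CR20-CTRL at 34.2 to 108 CPM (median 67.0). The interval thus holds both a difference of almost 0 and one past the fold minimum.

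Cd34 was the member with the smallest p, by edgeR and by the exact permutation test, between the HFD groups. It was at 98.7 to 183 CPM (median 112) in FED-HFD and at 133 to 177 CPM (median 151) in CR20-HFD. It was at 123 to 156 CPM (median 135) in FED-CTRL and at 111 to 199 CPM (median 151) in CR20-CTRL. In FED-HFD, 5 mice were at or below 126 CPM and mouse 40 was at 183 CPM. The log2FC was 0.36 between the HFD groups (interval 0.07 to 0.64, adjusted p = 0.0828, exact permutation p = 0.0346) and -0.22 between the FED groups (adjusted p = 0.336). Without FED-HFD mouse 40 the values were 0.51 (adjusted p = 0.00389) and -0.37 (adjusted p = 0.0342). With voom quality weights they were 0.44 (adjusted p = 0.0115) and -0.32 (adjusted p = 0.0429), all under the fold minimum of 0.58. For each comparison these were the only 2 of 34 other settings in which the adjusted p passed. The highest adjusted p was 0.481 between the HFD groups and 0.918 between the FED groups. The log2FC nearest 0 was 0.24 and -0.06. FED-HFD mouse 40 also had the highest mesothelial sum of its group, 916 CPM against 170 to 301 CPM.

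The proteins of Ly6a and Thy1 are both held on the membrane by a lipid anchor. Ly6a had medians of 145, 167, 168 and 192 CPM in FED-CTRL, FED-HFD, CR20-CTRL and CR20-HFD. The highest mouse was FED-HFD mouse 40 at 421 CPM, and no other mouse was above 275 CPM. Mouse 40 was also the highest FED-HFD mouse for Ly6a in liver and in pituitary. The log2FC was 0.47 between the FED groups (interval -0.03 to 0.97, adjusted p = 0.229 by edgeR) and 0.34 between the CR20 groups (interval -0.16 to 0.84). Thy1 had medians of 24.0, 23.5, 26.3 and 24.3 CPM in the same order, and its intervals in the 4 comparisons lay within -0.46 and 0.57. In this fit these intervals end just short of 0.58, while that of the interaction ran from -0.69 to 0.70. Without CR20-CTRL mouse 49 the log2FC of Thy1 between the CR20 groups was 0.25, so a difference of 0.58 is not excluded.

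A list of lipid-anchored proteins held LY6 genes, among them the member Ly6a, and also the member Thy1. Of its 9 tested genes (10 listed), 1 was called higher between the FED groups and between the HFD groups 1 higher and 1 lower. Ly6c2, an antigen of monocytes, rose by 1.05 (adjusted p = 0.0254) with the diet in FED mice and was lower by -1.08 (adjusted p = 0.0175) in CR20-HFD than in FED-HFD. Gpihbp1, which carries lipoprotein lipase on capillary endothelium, was 0.86 higher in CR20-HFD than in FED-HFD (adjusted p = 0.022). Neither is a member here, and reads may be shared between near-identical genes of the Ly6 cluster.

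Fap had the least spread of the 9. It was at 12.1 to 14.9 CPM (median 13.7) in FED-CTRL and 11.1 to 16.1 CPM (median 14.3) in FED-HFD. In CR20-CTRL it was at 8.60 to 13.4 CPM (median 10.8) and in CR20-HFD at 7.86 to 14.0 CPM (median 10.3). In CPM both CR20 medians lay below the lowest mouse of either FED group, and the ranges overlapped. In log2 CPM, which uses TMM factors, this did not hold. There the CR20-CTRL median of 3.48 was above the lowest FED-HFD mouse (3.39), and the CR20-HFD median was 3.38. The log2FC was -0.35 between the CTRL groups (interval -0.63 to -0.07, adjusted p = 0.482 by edgeR, exact permutation p = 0.0152) and -0.34 between the HFD groups (interval -0.62 to -0.06, adjusted p = 0.0928, exact permutation p = 0.0433). Neither was called. In the second, the adjusted p reached 0.0256 without CR20-HFD mouse 46 (log2FC -0.45) and 0.0509 without CR20-CTRL mouse 5. With the range of animal numbers as a covariate it was 0.0429. These were the only 3 of 34 other settings in which it passed, and its highest value was 0.202. The diet gave -0.06 in FED mice (interval -0.33 to 0.22) and -0.04 in CR20 mice (interval -0.32 to 0.23).

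Of the Dpp4 and Fap family, 5 of 7 genes were tested and 0 called. Prep and Dpp9, cytoplasmic peptidases, passed the adjusted p between the HFD groups without reaching the fold minimum, at -0.30 and -0.27.

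Mgp had the largest log2FC of the members between the FED groups. It was at 40.7 to 85.8 CPM (median 49.9) in FED-CTRL and at 71.2 to 142 CPM (median 77.4) in FED-HFD. In CR20-CTRL it ran from 20.5 to 150 CPM (median 68.7) and in CR20-HFD from 28.7 to 93.3 CPM (median 61.0). FED-CTRL mouse 24 was the 1 mouse of its group within the range of FED-HFD. The log2FC was 0.61 (interval -0.04 to 1.27, adjusted p = 0.23 by edgeR), and the exact permutation test gave p = 0.0152. The interaction value was -0.86 (interval -1.79 to 0.07, adjusted p = 0.311).

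Over all 36 pairs of a member and a comparison, the exact permutation test gave an unadjusted p under 0.05 for 5 (Pdgfra and Mgp between the FED groups, Cd34 and Fap between the HFD groups, and Fap between the CTRL groups). The share of all genes under 0.05 in this test was not computed, so the 5 cannot be set against it. By edgeR, 25.7%, 6.03%, 29.8% and 7.39% of all genes had an unadjusted p under 0.05 between the FED, CR20, HFD and CTRL groups. The smallest permutation p that 6 against 6 mice allow is 0.00216. The 2 groups overlapped in all 36. The share of all genes whose groups overlap was not computed, so this is not shown to be particular to the members.

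**Figure D3:**
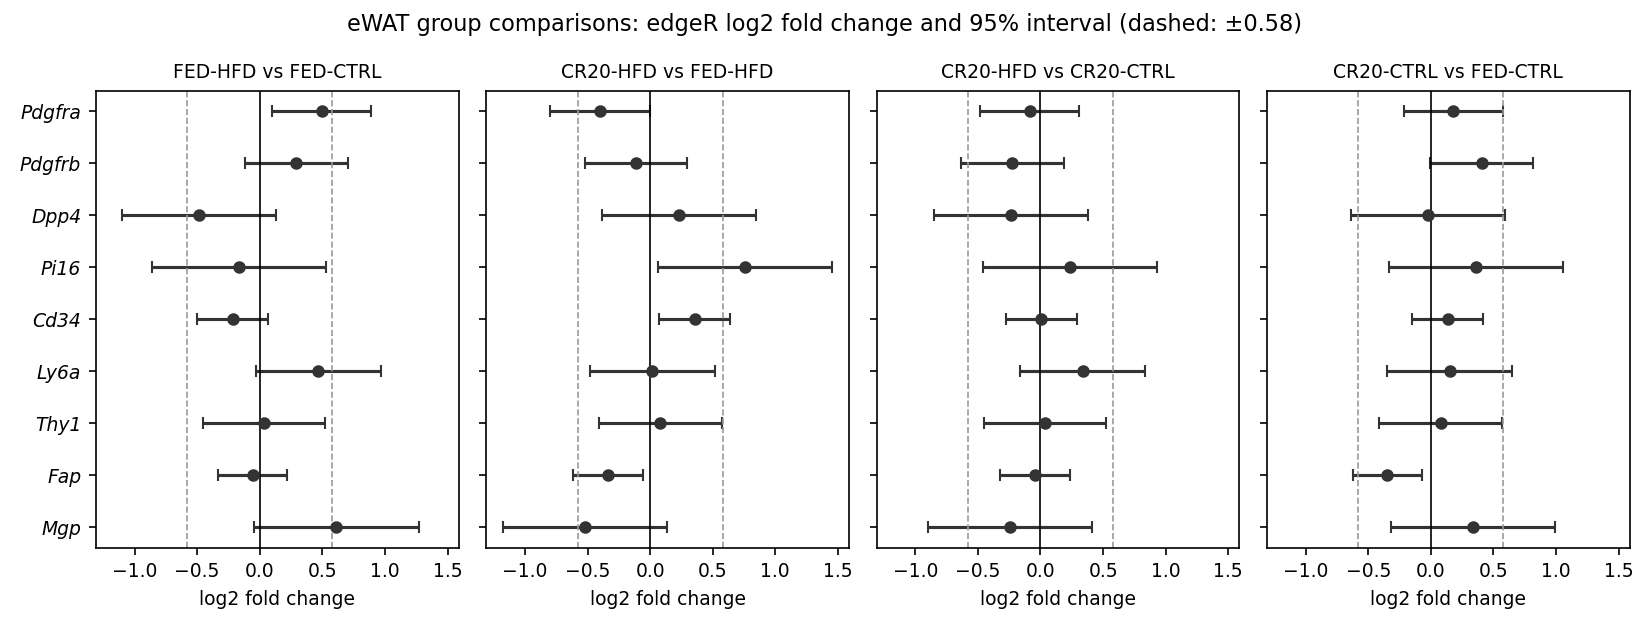
Log2FC of each gene in the 4 eWAT comparisons with its 95% interval from the edgeR fit (horizontal axis, log2), with dashed lines at the fold minimum of 0.58 in both directions. No gene passed the adjusted p, and the widest intervals are those of Pi16, Mgp and Dpp4.

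The members differed in how much mice of 1 group varied. The SD of log2 CPM within groups was 0.67 for Pi16, 0.61 for Mgp, 0.56 for Dpp4, 0.43 for Ly6a and Thy1, 0.36 for Pdgfrb, 0.34 for Pdgfra, 0.24 for Cd34 and 0.23 for Fap, against a median of 0.30 over the tested genes. Among genes within 0.5 log2 CPM of the same level, the SDs of Pi16, Mgp and Dpp4 were larger than those of 98.4%, 98.0% and 97.1%. In CR20-CTRL the SD of Mgp was 0.91 and that of Dpp4 0.75.

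The pairs of members also differed in how far they varied together. Over the 36 pairs of members, Pearson's r of log2 CPM across the 24 eWAT libraries ran from -0.18 to 0.67 (median 0.17), with 27 pairs above 0. The highest values were 0.67 for Pdgfrb with Mgp, 0.62 for Dpp4 with Cd34, 0.54 for Cd34 with Thy1 and 0.52 for Dpp4 with Thy1, and 0.50 for the receptors Pdgfra and Pdgfrb. Dpp4 with Pi16 was at 0.25 and Dpp4 with Fap at 0.09. On deviations from the group means r had a median of 0.24 and ran from -0.25 (Pdgfrb with Ly6a) to 0.69 (Pdgfrb with Mgp). These are descriptions, and all values share the same libraries and their scaling. The r of pairs of other genes was not computed.

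Part of this variation went together with markers of fibroblasts and of other cell types. The 9 members were set against the summed level of 7 marker lists over the 24 mice, on log2 scales, which makes 63 relations with p from 100000 permutations adjusted over the 63, and r passed an adjusted p of 0.055 in 10 of them. Dpp4 with 8 mesothelial genes, markers of the cells that line the surface of visceral fat, had a Pearson's r of 0.90 and a Spearman's rho of 0.88 (permutation p = 1e-05 for both, the smallest they can give, adjusted p = 0.00063). It was 0.86 without CR20-HFD mouse 6 and CR20-CTRL mouse 49, the mice farthest from the median, 0.92 without the 6 libraries named above and 0.88 on deviations from the group means. The mesothelial sum ran from 52.1 CPM in CR20-HFD mouse 6, which had the lowest Dpp4 of all 24 mice, to 1587 CPM in CR20-CTRL mouse 49, which had the highest.

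Cd34 went with the same list, with r = 0.66 and rho = 0.83 (permutation p = 0.00056 and 2e-05, adjusted p = 0.012 and 0.00063), and r = 0.81 without the same 2 mice. Thy1 did so with r = 0.57 and rho = 0.59 (permutation p = 0.0039 and 0.0033, adjusted p = 0.033 and 0.042), and r = 0.49 without those mice. Pi16 stood at 0.25 and Fap at 0.04 with this list. All 8 mesothelial genes were detected in each group. Their sum was 353 to 804 CPM (median 571) in FED-CTRL, 170 to 916 CPM (median 259) in FED-HFD, 292 to 1587 CPM (median 382) in CR20-CTRL and 52.1 to 897 CPM (median 616) in CR20-HFD, and 0 of the 8 were called in any comparison, where their median log2FC was -0.74 between the FED groups and 0.69 between the HFD groups. The part of these cells in the levels of Dpp4, Cd34 and Thy1 was not tested.

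Thy1 had its highest r with 13 general fibroblast genes such as the collagens Col1a1 and Col3a1, at 0.73 (rho 0.77, permutation p = 5e-05 for both, adjusted p = 0.0016 and 0.001), and 0.67 without the 2 farthest mice. Mgp went opposite to 10 adipocyte genes, with r = -0.63 and rho = -0.68 (permutation p = 0.0011 and 0.00051, adjusted p = 0.014 and 0.008), and -0.61 without FED-HFD mouse 23 and CR20-CTRL mouse 5. For Pdgfra and Pdgfrb with the adipocyte genes r was -0.65 and -0.61 (permutation p = 0.00095 and 0.0058, adjusted p = 0.014 and 0.041). It was -0.38 and -0.33 without those 2 mice, and -0.44 and -0.42 without the 6 libraries, which include both. On deviations from the group means it was -0.55 and -0.65. The rho values of -0.53 and -0.50 (permutation p = 0.0084 and 0.015) had adjusted p of 0.089 and 0.12. The macrophage genes gave r = 0.61 with Pdgfra (permutation p = 0.0021, adjusted p = 0.022) and r = 0.54 with Mgp (permutation p = 0.0072, adjusted p = 0.045), and 0.40 and 0.45 without FED-HFD mice 23 and 12. Their rho values of 0.48 and 0.42 (permutation p = 0.018 and 0.041) had adjusted p of 0.12 and 0.18. On deviations from the group means, r with the macrophage genes was 0.47 for Pdgfra and 0.41 for Mgp. The r over all 24 mice takes in differences between groups as well as between mice of a group. Cd34 with the general fibroblast genes was at r = 0.56 (permutation p = 0.0041, adjusted p = 0.033) and rho = 0.48 (permutation p = 0.019, adjusted p = 0.12), and at r = 0.38 without CR20-HFD mouse 46 and FED-HFD mouse 13. Fap with these genes was at r = 0.28 (permutation p = 0.19, adjusted p = 0.47), and at 0.66 on deviations from the group means. Ly6a had no r beyond 0.14 in either direction with any of the 7 lists over all 24 mice, but its rho with the adipocyte genes was 0.39 (permutation p = 0.064, adjusted p = 0.21), and without the 6 libraries its r was 0.39 with the general fibroblast, 0.36 with the mesothelial and -0.32 with the mural genes.

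**Figure D4:**
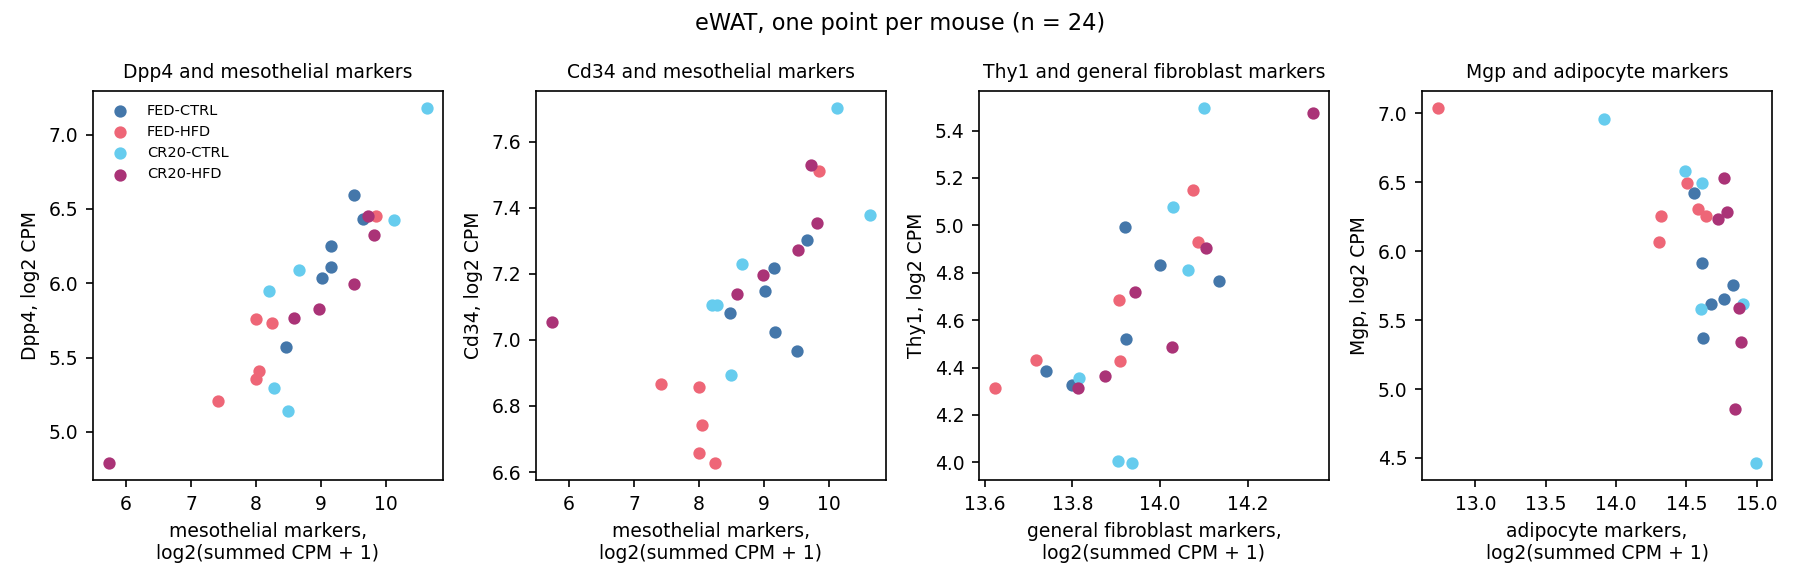
Log2 CPM of Dpp4, Cd34, Thy1 and Mgp (vertical axes) against the log2 summed CPM of a marker list (horizontal axes) in eWAT, 1 point per mouse, coloured by group. Dpp4 rises along the mesothelial sum over all 4 groups (r = 0.90), and Mgp is at 150 and 142 CPM in CR20-CTRL mouse 5 and FED-HFD mouse 23, which have low adipocyte sums.

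**Figure D5:**
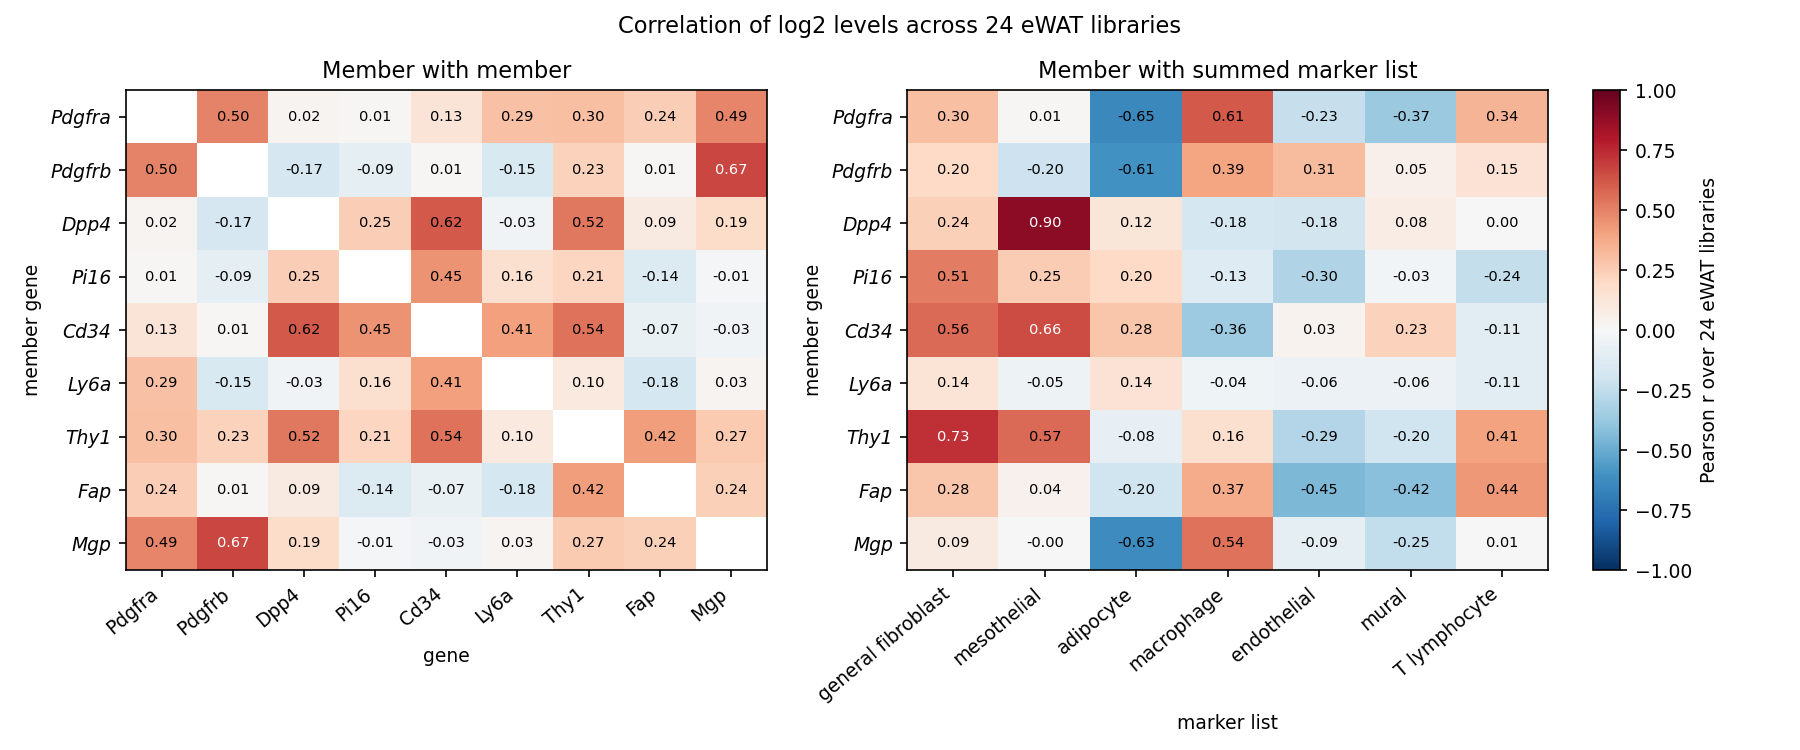
Pearson's r over the 24 eWAT libraries between the 9 genes (left) and between each gene and 7 summed marker lists (right), on a colour scale from -1 to 1. The highest value is that of Dpp4 with the mesothelial list, and the row of Ly6a on the right is close to 0.

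The genes most like each member over the 24 eWAT libraries, among 9992 genes of sufficient level, were also different from member to member. For Dpp4 they were Rspo1, Lrrc1 and Fras1 (r = 0.89 for each), for Cd34 Gas1, Nhsl1 and Arl4d (0.84, 0.83 and 0.83), for Pi16 Gfpt2, Dbn1 and Efhd1 (0.78, 0.74 and 0.74), and for Thy1 Ecm1, Tnxb and Mxra7 (0.89, 0.87 and 0.85). For Pdgfra they were Lama2, Cd47 and Cxcl16 (0.83, 0.83 and 0.80), for Pdgfrb Mmp14, Pxn and Furin (0.88, 0.87 and 0.85), and for Mgp Itm2c, Cpxm1 and Cygb (0.84, 0.82 and 0.81). For Ly6a they were Cxcl9, Rtp4 and Tap1 (0.87, 0.81 and 0.80), and for Fap Ank, Uvrag and Ccl11 (0.79, 0.76 and 0.76). No member was among the nearest genes of another.

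Other genes of the stroma were called in part, and several of the shares lie near those of all genes (9.73% between the HFD groups and 8.01% between the FED groups). Between the HFD groups, 2 of 14 interstitial progenitor genes were higher (Efhd1, log2FC 0.94, and Dact2, an inhibitor of Wnt signalling, 1.23), as were 2 of 13 committed preadipocyte genes (Apoe, an apolipoprotein, 0.77, and Ebf2, a transcription factor of adipocyte precursors, 0.74). Vit was higher among 6 CD142-type regulator genes (1.10), and Hoxa5 (0.81) and Gata6 (0.66), both transcription factors, among the 6 tested visceral progenitor regulators, with 0 genes of these 4 lists lower. The adjusted p of the 7 ran from 0.00331 to 0.0464 by edgeR. The same lists had 0 calls between the FED groups. Without the 6 libraries, these lists held 1 call, in the visceral list.

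Between the FED groups, 1 of 13 general fibroblast genes was called higher (Lum, the proteoglycan lumican, 1.02) and 2 of 14 fibrogenic genes (Postn, periostin, 1.25, and Tgfb1, 0.81). Tgfb1 was lower (-0.91) and Tagln, a smooth-muscle actin-binding protein, higher (1.23) in CR20-HFD than in FED-HFD. Without FED-HFD mouse 23, 0 genes of both lists were called in the diet comparison of FED mice. In the same comparisons, 7 of 12 macrophage genes were called higher with the diet in FED mice and 8 of 12 lower in CR20-HFD mice than in FED-HFD mice, and 3 of 10 mural and 5 of 12 endothelial genes were higher in CR20-HFD, among them Rgs5 (0.84), Higd1b (0.97) and Emcn (0.97). Rgs5 was also lower with the diet in FED mice (-0.65). Of 10 adipocyte genes, 1 was lower with the diet in FED mice (Slc2a4, the insulin-responsive glucose transporter, -0.93), and 2 were higher in CR20-HFD than in FED-HFD mice (the adipokine genes Cfd, 1.49, and Retn, 1.02). Without the 6 libraries the mural and endothelial counts were 0 and the macrophage counts 2 and 6. The T lymphocyte list had 0 calls of 8 tested genes.

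In liver, where 7 members passed the filter on low counts, 0 were called with the diet in FED and in CR20 mice (0.109% and 0.522% of 13787 genes called) and 0 in the 2 comparisons of maternal groups (0% of genes). The unadjusted p was under 0.05 for 1, 2, 0 and 1 members between the FED, CR20, HFD and CTRL groups, and for 6.66%, 9.57%, 3.58% and 2.17% of all genes. Ly6a had the largest values, 1.14 with the diet in FED mice (adjusted p = 0.396 by edgeR) and 0.94 in CR20 mice (adjusted p = 0.401). In pituitary, 0 of 9 members and 0% of 16657 genes were called in each of the 4 comparisons, with an unadjusted p under 0.05 for 3, 1, 5 and 2 members between the FED, CR20, HFD and CTRL groups, in this order, where 9.64%, 7.28%, 6.77% and 17.3% of all genes had one. With the diet in FED mice the pituitary log2FC was 0.65 for Ly6a and -0.46 for Pdgfra (adjusted p = 0.207 by edgeR for both). For Cd34 it was 0.36 between the HFD groups (adjusted p = 0.388 by edgeR).

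Antisense or overlapping genes share exon bases with Pdgfra, Dpp4, Pi16, Cd34 and Ly6a. The library kit kept the strand and the strand setting of the counting is not given in the sources used here, so these counts may include reads of the overlapping genes.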

How the data were processed

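Reads were trimmed, aligned with STAR to GRCm39 and counted per Ensembl gene with featureCounts of Subread by the authors, as their methods and processing notes state, and the deposited values are raw counts without normalization. Names and exon lengths came from GENCODE M39 (54749 of 55416 genes matched), which may not be the release used for counting. The 24 libraries of a tissue were fitted with edgeR 4.0.16 (filterByExpr, TMM, estimateDisp, glmQLFit, glmQLFTest) with 1 mean per group, and the tissues in 1 fit of 72 libraries, where 4 group means of eWAT were compared with 4 of another tissue. All tests were two-sided, with Benjamini-Hochberg adjustment over every gene tested. Log2 CPM used TMM factors and a prior count of 2, and CPM the library totals. The exact permutation test used all 924 divisions of 12 mice. Alternatives were limma 3.58.1 voom with and without quality weights, DESeq2 1.42.0, its size factors, other filters, a covariate, robust fits, other thresholds and each mouse left out. The fits were tested on simulated data. The 6 libraries were chosen after the data were seen.

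The members and lists were chosen with earlier results of these data known. The rule for named genes covers all 9 members, up to 4 called genes per list and comparison with the smallest p, and the PDGF, LY6 and DPP lists. It also covers the 3 genes with the highest r to each member among those with a mean log2 CPM of at least 3. The tissues of a mouse carry 1 animal number, so they pair by animal. Over 24 mice, the correlation of a mouse's deviations from its group means between eWAT and liver had a median of 0.07 (-0.24 to 0.30). Libraries with identical counts were looked for within groups and not found. Of the epididymis and testis list 0 genes passed the filter in eWAT, of the pituitary hormone list 2 did and 0 were called, and 2 hepatocyte genes, Apoa1 and Ttr, were called higher in FED-HFD vs FED-CTRL and lower in CR20-HFD vs FED-HFD and for the interaction.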

Additional observations from a re-analysis of the deposited data

Results flagged for a closer look

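In 6 of the 100 groups of 6 mice that were looked at for a member, 1 mouse stood so far from the next that the gap took up over 0.625 of the range of the group in log2 CPM. Chance alone marks about 1 in 20 groups. In eWAT, Pdgfra was at 6.54 in CR20-CTRL mouse 5 and at most at 5.91 in the other mice of its group, Cd34 at 7.51 in FED-HFD mouse 40 against at most 6.87, and Pi16 at 3.76 in FED-CTRL mouse 24 against at least 5.41. CR20-CTRL mouse 5 is among the 6 libraries that stood apart, 5 of them for raised markers of another tissue and FED-HFD mouse 23 for a low adipocyte sum. CR20-CTRL mouse 5 had 622 CPM of summed hepatocyte genes and 62.1 CPM of epididymis and testis genes, and their part in the value was not tested. FED-HFD mouse 40 and FED-CTRL mouse 24 are not among the 6. In pituitary, Pdgfra was at 4.29 in FED-CTRL mouse 42 (others at most 3.63) and Thy1 at 7.77 in FED-CTRL mouse 24 (others at most 7.52), and in liver Thy1 was at 0.44 in CR20-CTRL mouse 47 (others at least 0.93). No interaction of maternal group and diet passed the adjusted p for a member in eWAT.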

How the results depend on the processing

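The count of 0 called members in eWAT held in the 5 comparisons under all 12 other settings run (11 for the interaction) and with each of 24 mice left out (lowest 0, highest 0). The 8 members higher than in liver and the 7 higher than in pituitary were 8 and 7 with the mouse as a replicate block as well, which changed no call, and 8 for pituitary with library totals, where Pdgfrb passed. In liver the counts stayed at 0 under 4 settings. In pituitary the unfiltered fit called 1 member, Ly6a, in FED-HFD vs FED-CTRL. Over all genes, 1278 and 1554 were called between the FED groups and between the HFD groups, 656 and 861 without FED-HFD mouse 23, and 467 and 630 without the 6 libraries, and the 387 of the interaction were 0 without CR20-CTRL mouse 5 or without the 6. The depth limits Pi16 and Fap in liver, where most libraries had at most 3 counts. The alternatives without the 6 libraries were chosen after seeing the data.

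The direction of some log2FC values near 0, none of them called, turned. Under voom without weights the log2FC was 0.0158 for Pi16 with the diet in FED mice, and -0.00662 for Thy1 between the CTRL groups, and 0.00679 for Ly6a and -0.0153 for Fap for the interaction. Without the 6 libraries the log2FC was 8.17e-05 for Pi16 and 0.0609 for Fap with the diet in FED mice, and 0.13 for Pdgfra, -0.0838 for Thy1 and 0.28 for Mgp with the diet in CR20 mice, and -0.26 for Ly6a between the HFD groups, and 0.0421 for Dpp4 and -0.0882 for Mgp between the CTRL groups, and -0.23 for Thy1 and -0.19 for Fap for the interaction. Under voom quality weights the log2FC was -0.0851 for Thy1 with the diet in FED mice, and 0.0783 for Pdgfra, 0.053 for Pdgfrb, -0.0244 for Cd34 and 0.10 for Mgp with the diet in CR20 mice, and 0.0241 for Ly6a for the interaction. With the animal-number range as covariate the log2FC was -0.00226 for Cd34 with the diet in CR20 mice, and -0.00842 for Ly6a and -0.0861 for Thy1 between the HFD groups, and -0.0486 for Thy1 between the CTRL groups, and -0.0374 for Thy1 and -0.00192 for Fap for the interaction. Under DESeq2 the log2FC was -0.000679 for Thy1 and -0.000249 for Fap for the interaction. Under DESeq2 size factors the log2FC was -0.000906 for Thy1 for the interaction. With genes kept only above 1 CPM in 6 or more libraries the log2FC was -0.00219 for Thy1 for the interaction. Leaving out 1 mouse at a time gave ranges that crossed 0. With the diet in FED mice they ran from -0.37 to 0.0137 for Pi16, -0.081 to 0.11 for Thy1 and -0.0903 to 0.0126 for Fap. With the diet in CR20 mice they ran from -0.19 to 0.0931 for Pdgfra, -0.37 to 0.0888 for Dpp4, -0.0539 to 0.12 for Cd34, -0.16 to 0.25 for Thy1 and -0.16 to 0.0282 for Fap. Between the HFD groups they ran from -0.16 to 0.0155 for Pdgfrb, -0.10 to 0.38 for Ly6a and -0.11 to 0.20 for Thy1. Between the CTRL groups they ran from -0.0102 to 0.25 for Pdgfra, -0.34 to 0.11 for Dpp4 and -0.14 to 0.19 for Thy1. For the interaction they ran from -0.25 to 0.23 for Ly6a, -0.19 to 0.22 for Thy1 and -0.10 to 0.0843 for Fap. The cause of these turns was not tested.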
